A study of Mus musculus with 11 samples.

Results

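The genes described here encode chemokines and inflammatory cytokines that fibroblasts make: Ccl2, Ccl5, Ccl7, Cxcl1, Cxcl5, Cxcl12, Cx3cl1, Il6, Lif and Csf1. They were taken from the deposited gene table by their symbol alone, and each of the 10 symbols matched 1 row of the 21684 in the table. All 10 passed the filter on low counts, as did 13332 genes in all. RNA was sequenced from NIH/3T3, a long-established fibroblast line of mouse embryos, in 11 libraries: WT cells with 2 replicates, and cells of 3 knockout lines, Xap5 KO, Nono KO or Sox5 KO, with 3 replicates each. Every library, WT included, was labelled as serum starvation for 24 h, and the labels do not give the serum content of the medium. Xap5 is carried in the table under its mouse symbol Fam50a, a gene for a nuclear protein; Nono encodes a nuclear RNA- and DNA-binding protein, and Sox5 a transcription factor of the SOX family. The labels name no clones, so each knockout was taken as 1 line, and the genotype cannot be told apart from the clone it was studied in. Nothing in the labels says that replicates were separate cultures, so p-values measure the spread between these libraries, which may be technical.

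Chemokines are small secreted proteins that direct the migration of cells bearing matching G-protein-coupled receptors. The CC chemokines Ccl2 and Ccl7 act through Ccr2 and draw monocytes, Ccl5 draws T cells and monocytes, Cxcl1 and Cxcl5 act through Cxcr2 and draw neutrophils, Cxcl12 acts through Cxcr4 and is taken up by the scavenger receptor Ackr3, and Cx3cl1 is a membrane-anchored chemokine that binds Cx3cr1. Il6 and Lif are cytokines whose receptors signal through the shared subunit gp130, encoded by Il6st, to JAK kinases and STAT transcription factors. Csf1 is the growth factor of macrophages and acts through Csf1r. Transcription of many of these genes in fibroblasts is driven by NF-kB, and their mRNAs are commonly short-lived because proteins such as tristetraprolin, encoded by Zfp36, bind AU-rich elements and speed their decay.

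Promoter sequence, from 250 bases before to 50 bases after the transcription start, was found in the RefSeq table (build GRCm38.p6) for 6 of the 10 genes, namely Cxcl1, Cxcl12, Cx3cl1, Il6, Lif and Csf1, and not for Ccl2, Ccl5, Ccl7 and Cxcl5. The submitters' processing notes name GRCm39, so the coordinates below belong to the RefSeq table and not to the deposited counts. The windows of Cxcl1, which was higher in all 3 knockout lines, of Il6, the least abundant gene of the group per base in WT, and of Cxcl12, whose level moved in opposite directions between the lines, are printed 5′ to 3′ on the strand of the gene. Capitals mark every match on either strand to the NF-kB core, which reads GGG, any 2 bases, TT, any base and CC.
Cxcl1 promoter, chr5:90890995-90891294, plus strand: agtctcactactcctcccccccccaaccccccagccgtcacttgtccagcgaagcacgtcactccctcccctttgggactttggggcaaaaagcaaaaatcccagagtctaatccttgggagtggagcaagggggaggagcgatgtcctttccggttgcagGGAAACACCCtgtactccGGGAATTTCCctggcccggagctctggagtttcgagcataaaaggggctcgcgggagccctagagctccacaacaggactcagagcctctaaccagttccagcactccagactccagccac
Il6 promoter, chr5:30012864-30013163, plus strand: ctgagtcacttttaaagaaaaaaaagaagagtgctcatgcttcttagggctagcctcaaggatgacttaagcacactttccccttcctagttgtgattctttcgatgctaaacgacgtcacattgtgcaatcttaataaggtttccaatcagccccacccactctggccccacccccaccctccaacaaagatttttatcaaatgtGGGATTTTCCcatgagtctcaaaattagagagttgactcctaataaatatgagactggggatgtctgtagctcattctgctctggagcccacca
Cxcl12 promoter, chr6:117168285-117168584, plus strand: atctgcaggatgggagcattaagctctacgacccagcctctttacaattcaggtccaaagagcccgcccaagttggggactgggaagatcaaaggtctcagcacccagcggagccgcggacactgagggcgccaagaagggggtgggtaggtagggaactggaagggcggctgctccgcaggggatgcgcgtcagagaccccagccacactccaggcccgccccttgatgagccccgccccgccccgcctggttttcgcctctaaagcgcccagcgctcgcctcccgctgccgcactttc
The Cxcl1 window held 2 matches, GGAAACACCC from position -89 on the opposite strand and GGGAATTTCC from position -71, counted back from the start site to the leftmost base of the match. The Il6 window held GGGATTTTCC from position -44, and the Csf1 window held GGAAAGTCCC from position -154 on the opposite strand. No match lay in the windows of Cxcl12, Cx3cl1 or Lif. The core was present in 4.79% of the 32851 promoter windows of the same table. The AP-1 motif TGANTCA, present in 7.81% of all windows, matched in Il6 and Lif, and the SOX motif AACAAT, present in 10.7%, matched in Csf1 alone among the 6. The TATA motif TATAAA, present in 13.6%, matched in Cx3cl1. Both strands were searched for each motif, no match overlapped a match of another motif, and a match describes letters only.

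Library totals ran from 30205878 to 43498383 counts, of which mitochondrial genes took 6.20% and 6.28% in WT, 7.89% to 10.3% in Xap5 KO, 7.10% to 7.98% in Nono KO and 6.06% to 6.92% in Sox5 KO. Levels are given as CPM, the usual depth-scaled count, on the TMM-scaled library size. Of the targeted genes, Fam50a stood at 63.8 CPM ± 1.34 in WT (SD, n = 2) and 7.75 ± 0.230 in Xap5 KO, and Nono at 354 ± 4.67 in WT and 31.8 ± 3.70 in Nono KO (SD, n = 3 in each knockout). Sox5 stood at 47.8 CPM ± 2.68 in WT (SD, n = 2), and it was low in all 3 lines, at 13.5 ± 0.759 in Sox5 KO, 7.78 ± 0.891 in Nono KO and 13.7 ± 1.62 in Xap5 KO (SD, n = 3 each). All 12 fibroblast markers were measured, with summed levels of 27309 to 27504 CPM in WT, 20740 to 22114 in Xap5 KO, 53029 to 57993 in Nono KO and 22857 to 23291 in Sox5 KO. The single markers did not all follow these sums: 3 were called higher and 5 lower than WT in Xap5 KO, 9 and 0 in Nono KO, and 7 and 4 in Sox5 KO. In the same order 66.7%, 75% and 91.7% of the markers were called, beside 45.5%, 48.6% and 60.9% of all tested genes. Of all tested genes 23.2%, 23.5% and 30.6% were called higher. In Sox5 KO Col1a1, Col3a1 and Thy1 were among the markers called higher, and Fn1, the most abundant, fell by 1.15. Of 14 macrophage and leukocyte markers 8 passed the filter and Tyrobp and Cd3e were at 0 in every library; their summed level was 8.48 to 9.30 CPM in WT, 11.5 to 13.8 in Xap5 KO, 14.4 to 19.4 in Nono KO and 12.5 to 13.8 in Sox5 KO. Of the 8 that passed, 1 was called higher and 0 lower than WT in Xap5 KO, 2 and 0 in Nono KO, and 2 and 1 in Sox5 KO. That made 12.5%, 25% and 37.5%, beside the same shares of all tested genes. Ptprc, the leukocyte antigen CD45, rose from 5 and 4 counts in WT to between 242 and 300 in Nono KO (adjusted p = 1.5e-05) and was at 0 in every Sox5 KO library. Lyz2 had 4 and 7 counts in WT, 0 to 6 in Xap5 KO, 62 to 95 in Nono KO and 36 to 50 in Sox5 KO. S100a8 rose from 1 and 0 counts in WT to between 26 and 49 in Xap5 KO (adjusted p = 0.00425), a call lost without WT replicate 2. Of 8 endothelial markers 3 passed the filter and Tie1, Emcn and Cldn5 were at 0 in every library. The sum of the 8 was 13.5 to 15.7 CPM in WT, 33.5 to 35.7 in Xap5 KO, 2.95 to 4.81 in Nono KO and 7.92 to 10.8 in Sox5 KO. It was mostly Vwf in WT, Xap5 KO and Sox5 KO, while Vwf stood at 1.55 to 2.34 CPM in Nono KO. The part of these markers and of the mitochondrial share in the results was not tested.

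Differences were tested with edgeR, and a gene was called at a Benjamini-Hochberg adjusted p under 0.05. Of the 10 genes, 5 were called higher and 1 lower in Xap5 KO than in WT, where 45.5% of all tested genes were called, 23.2% higher and 22.3% lower. In Nono KO 4 were higher and 0 lower, where 48.6% of all genes were called, 23.5% higher and 25.1% lower. In Sox5 KO 5 were higher and 2 lower, where 60.9% of all genes were called, 30.6% higher and 30.3% lower. The share of the 10 called was thus near the share over all genes in each comparison with WT. The median change of the 10 was 0.27 in Xap5 KO, where it was 0.00 over all genes, 0.44 in Nono KO beside -0.02, and 1.01 in Sox5 KO beside -0.01. Between knockouts, 4 of the 10 were called for Xap5 KO against Nono KO (1 higher, 3 lower) where 53.0% of all genes were, 27.1% higher and 25.9% lower. For Xap5 KO against Sox5 KO, 7 were called (1 higher, 6 lower) where 61.6% of all genes were, 31.1% higher and 30.4% lower. For Nono KO against Sox5 KO, 6 were called (2 higher, 4 lower) where 63.5% were, 30.9% higher and 32.6% lower. With a further minimum of 2-fold, 3, 2 and 4 of the 10 were called against WT in Xap5 KO, then Nono KO, then Sox5 KO, beside 10.3%, 11.2% and 17.2% of all genes. For Xap5 KO against Nono KO that minimum left 2, beside 11.1% of all genes. Counts under it for Xap5 KO and Nono KO against Sox5 KO are not reported here. All 3 comparisons with WT share the same 2 WT libraries. Cxcl1, Cxcl5 and Csf1 were called higher in all 3 lines, 3 of the 10, while 15.9% of all tested genes were called in 1 direction in all 3. Cxcl12 and Lif were called in opposite directions in different lines, 2 of the 10, beside 14.8% of all tested genes.

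The CC chemokines Ccl2 and Ccl7 were the most abundant of the 10 genes per kilobase of transcript, and both rose in Sox5 KO. Ccl2 measured 449.5 and 447 CPM in WT, 425, 448 and 409.6 CPM in Xap5 KO, 544, 507 and 397 CPM in Nono KO, and 1188, 978 and 1026 CPM in Sox5 KO. All 3 Sox5 KO libraries lay above every other library, while those of Nono KO and Xap5 KO overlapped WT. The increase in Sox5 KO over WT was 1.25 on the log2 scale (SE 0.122, adjusted p = 2.92e-06; adjusted p-values are edgeR's throughout, corrected over all tested genes). Ccl2 differed from WT by -0.07 in Xap5 KO (SE 0.117, adjusted p = 0.680) and by 0.11 in Nono KO (SE 0.118, adjusted p = 0.495), and intervals of 2 SE on either side ran from -0.30 to 0.17 and from -0.13 to 0.34. Sox5 KO also exceeded the other knockout lines, with differences of -1.32 in Xap5 KO and -1.14 in Nono KO against it (SE 0.107 and 0.106). With a correction for gene length and GC content the Sox5 KO increase was 0.71 (adjusted p = 9.72e-05) and Ccl2 was called lower in Xap5 KO than in WT, at -0.32 (adjusted p = 0.0227). Without Nono KO replicate 3, Ccl2 was called higher in Nono KO than in WT, at 0.23 (adjusted p = 0.0217). In bulk RNA, fewer cells that make a transcript and less of it per cell cannot be told apart.

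Ccl7, the gene next to Ccl2 on chromosome 11, measured 201 and 215 CPM in WT, 283, 262 and 195 CPM in Xap5 KO, 287, 295 and 246 CPM in Nono KO, and 375, 298 and 324 CPM in Sox5 KO. The Sox5 KO and Nono KO libraries all lay above WT, and the Xap5 KO libraries spanned it. In Sox5 KO, Ccl7 rose by 0.68 (SE 0.167, adjusted p = 0.00744), and its differences from WT of 0.24 in Xap5 KO (adjusted p = 0.274) and 0.41 in Nono KO (adjusted p = 0.0747) did not pass the test. Nono KO against Sox5 KO differed by -0.27 (SE 0.147, adjusted p = 0.147), which did not pass either. That difference did pass in a fit of Nono KO and Sox5 KO alone (adjusted p = 0.0244) and with the replicate number in the model (adjusted p = 0.0354). It also passed without Xap5 KO replicate 3 (adjusted p = 0.0216). Xap5 KO against Sox5 KO differed by -0.43 (adjusted p = 0.0317), a call lost without Sox5 KO replicate 1 (adjusted p = 0.0983) or replicate 3 (adjusted p = 0.0627), with no filter on low counts (adjusted p = 0.0538) and in a fit of those 2 groups alone (adjusted p = 0.0671). With the correction for gene length and GC content no difference of Ccl7 passed: it was 0.02 in Sox5 KO against WT (adjusted p = 0.936), -0.0012 in Nono KO against WT and -0.08 in Xap5 KO against Sox5 KO (adjusted p = 0.718). The Sox5 KO increase over WT was also lost without WT replicate 1, at 0.62 (adjusted p = 0.0546); here and below, a fit without 1 WT library assumes that the lone WT library varies like those of the other groups. The Nono KO difference from WT passed the test with DESeq2 (0.42, adjusted p = 0.0287) and with limma-voom (0.41, adjusted p = 0.0148).

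Per kilobase of transcript, Ccl2 stood at 1.58 times Ccl7 in WT (SD 0.0841, n = 2), 1.30 times in Xap5 KO (SD 0.223), 1.27 times in Nono KO (SD 0.104) and 2.34 times in Sox5 KO (SD 0.0499, n = 3 each). The 3 Sox5 KO ratios, from 2.31 to 2.40, lay above all others, the highest of which was 1.64. Along chromosome 11 the genes run Ccl2, Ccl7, Ccl11, Ccl12, Ccl8 and Ccl1. Ccl12 and Ccl1 were at 0 in every library. Ccl11, the eosinophil chemokine eotaxin, had 0 and 4 counts in WT, 142 to 189 in Xap5 KO, 22 to 42 in Nono KO and 16 to 44 in Sox5 KO, and rose in each line, by 6.36 in Xap5 KO (SE 0.736, adjusted p = 4.19e-07), 4.04 in Nono KO (SE 0.749, adjusted p = 0.000126) and 4.10 in Sox5 KO (SE 0.752, adjusted p = 7.27e-05). Ccl8, another monocyte chemokine, named here for its position after its values were seen, fell by 0.63 in Xap5 KO (adjusted p = 0.00965), a call lost without WT replicate 1 (-0.43, adjusted p = 0.103). In Nono KO it was higher by 1.93 and in Sox5 KO by 1.82 (SE 0.176 each, adjusted p = 8.09e-07 and 7.96e-07). Nono KO and Sox5 KO did not pass the test against each other for Ccl8 (difference 0.11, SE 0.144, adjusted p = 0.531). Ccl2 was thus highest in Sox5 KO and Ccl11 in Xap5 KO.

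**Figure D1:**
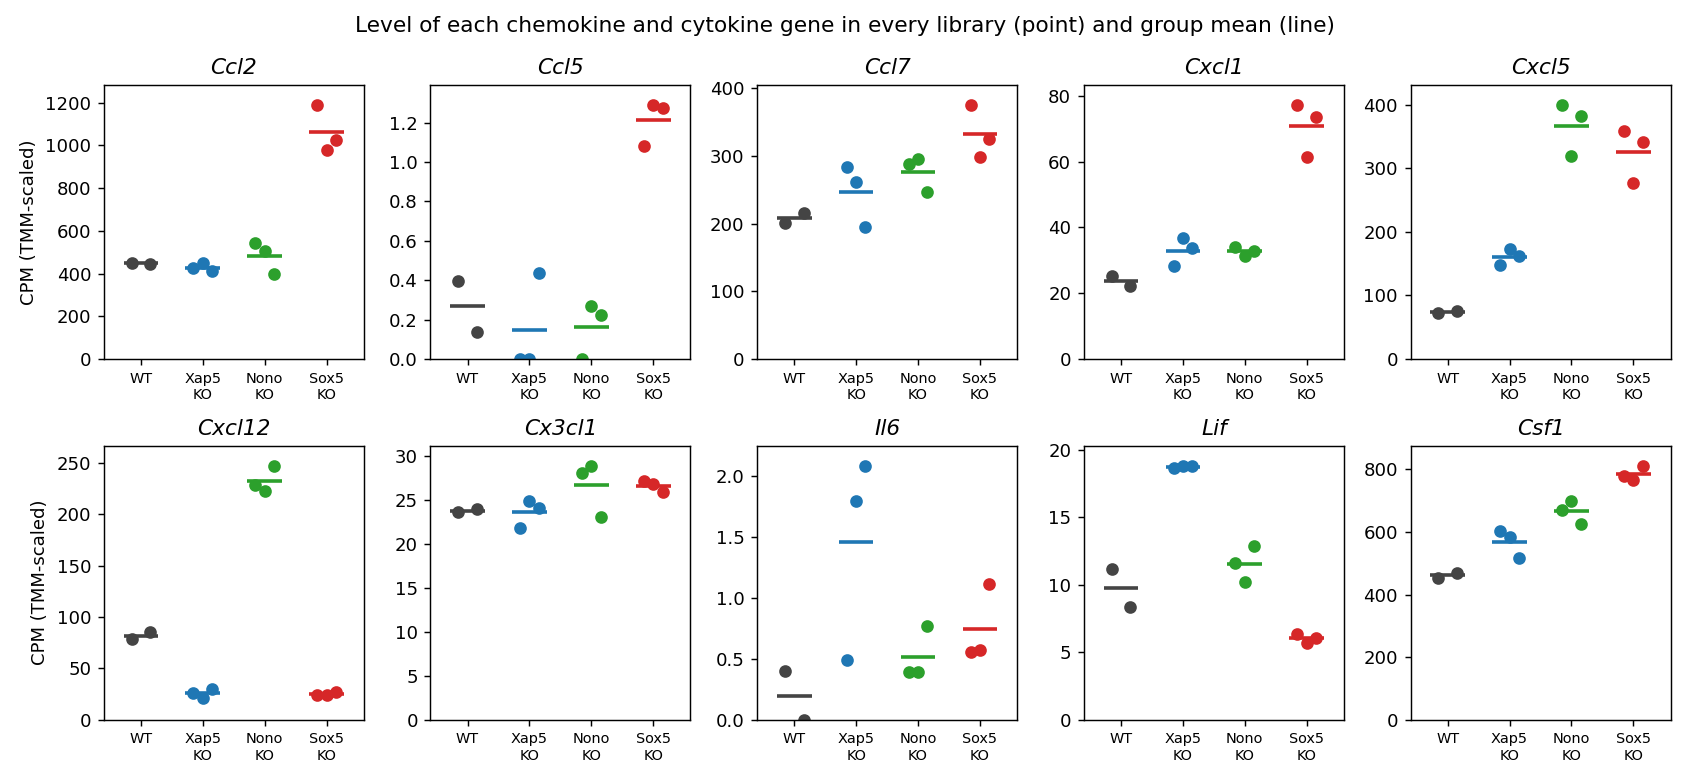
Expression of the 10 genes in each of the 11 libraries, 1 panel per gene, with CPM on the vertical axis of each panel; points are libraries and the bar is the group mean. Cxcl12 spans a wide range, from 21.6 to 30.2 CPM in Xap5 KO up to 223 to 247 CPM in Nono KO. Its Sox5 KO libraries, at 23.9 to 26.6 CPM, lie within the Xap5 KO range. The groups of Cx3cl1 lie between 21.8 and 28.8 CPM.

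Ccl5 was close to the detection limit. Its counts were 16 and 6 in WT, 0, 0 and 17 in Xap5 KO, 0, 11 and 8 in Nono KO, and 35, 38 and 40 in Sox5 KO. Only 5 of the 11 libraries reached the level of the filter, 3 of them from Sox5 KO, so Ccl5 passed mainly through the group where it was highest. The Sox5 KO libraries lay above all others, and the rest overlapped. Against WT no difference passed the test: 2.18 in Sox5 KO (SE 1.29, adjusted p = 0.154), -0.86 in Xap5 KO (SE 1.29, adjusted p = 0.628) and -0.70 in Nono KO (SE 1.29, adjusted p = 0.689). The Sox5 KO difference did pass with limma-voom (2.34, adjusted p = 0.0383) and in a fit of Sox5 KO and WT alone (2.18, adjusted p = 0.00663). Against Sox5 KO, Ccl5 was called lower in the other lines, with differences of -3.04 in Xap5 KO (adjusted p = 0.0311) and -2.88 in Nono KO (adjusted p = 0.0374). Those calls were lost without any 1 of the Sox5 KO libraries (adjusted p from 0.0577 to 0.0771). In Xap5 KO all counts came from replicate 3, and without it Ccl5 was called lower than WT (adjusted p = 0.0160).

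The neutrophil chemokines Cxcl1 and Cxcl5 rose in all 3 lines. They lie in 1 cluster on chromosome 5, in the order Cxcl5, Ppbp, Pf4, Cxcl3, Cxcl15, Cxcl1 and Cxcl2. Cxcl5 measured 72.9 and 75.4 CPM in WT, 147, 172 and 162 CPM in Xap5 KO, 399, 319.6 and 382 CPM in Nono KO, and 359, 277 and 341 CPM in Sox5 KO. No knockout library fell below 147 CPM, and Xap5 KO lay between WT and the other lines without overlap. Cxcl5 rose by 1.12 on the log2 scale in Xap5 KO (SE 0.122, adjusted p = 1.36e-05), by 2.31 in Nono KO (SE 0.128, adjusted p = 2.25e-08) and by 2.13 in Sox5 KO (SE 0.127, adjusted p = 2.39e-08). Xap5 KO was lower than the other lines, with differences of -1.19 from Nono KO and -1.02 from Sox5 KO (SE 0.105 each). Nono KO and Sox5 KO differed by 0.17 (SE 0.104), which did not pass the test, with an interval from -0.04 to 0.38. That difference passed with the correction for gene length and GC content (0.29, adjusted p = 0.00644) and without Nono KO replicate 2 (0.26, adjusted p = 0.0217).

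Cxcl1 measured 25.4 and 22.1 CPM in WT, 28.3, 36.7 and 33.7 CPM in Xap5 KO, 34.1, 31.4 and 32.8 CPM in Nono KO, and 77.2, 61.6 and 73.6 CPM in Sox5 KO. Each knockout library lay above both WT libraries, and the Sox5 KO libraries lay above all others. The increases were 0.47 in Xap5 KO and 0.46 in Nono KO (SE 0.112 each, adjusted p = 0.00169 each) and 1.58 in Sox5 KO (SE 0.115, adjusted p = 1.71e-10). Against Sox5 KO, Cxcl1 differed by -1.10 in Xap5 KO and by -1.11 in Nono KO (SE 0.0986 each), and those 2 lines differed from each other by 0.01 (SE 0.0987, interval from -0.19 to 0.20). The Xap5 KO increase was lost without WT replicate 2 (0.37, adjusted p = 0.0564). The small increases were 0.31 in Xap5 KO and 0.28 in Nono KO after the length and GC correction, and 0.30 in Nono KO when libraries were scaled by their totals. Per kilobase, Cxcl5 stood at 3.15 times Cxcl1 in WT (SD 0.378, n = 2), 4.93 times in Xap5 KO (SD 0.266), 11.2 times in Nono KO (SD 0.853) and 4.62 times in Sox5 KO (SD 0.0870, n = 3 each). Nono KO ratios, from 10.2 to 11.7, lay above all others. Of their neighbours, Cxcl3 was at 0 in every library and Cxcl2 had at most 3 counts in any. Their receptor gene Cxcr2 was at 0 in every library.

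Cxcl12 moved in opposite directions between the lines, rising in Nono KO and falling in Xap5 KO and Sox5 KO. It measured 78.2 and 85.3 CPM in WT, 26.1, 21.6 and 30.2 CPM in Xap5 KO, 228, 223 and 247 CPM in Nono KO, and 23.9, 24.0 and 26.6 CPM in Sox5 KO. The Nono KO libraries lay far above WT and the Xap5 KO and Sox5 KO libraries far below it. Cxcl12 fell by 1.65 on the log2 scale in Xap5 KO (SE 0.0997, adjusted p = 3.9e-10) and by 1.72 in Sox5 KO (SE 0.101, adjusted p = 1.11e-10). In Nono KO it rose by 1.51 (SE 0.102, adjusted p = 1.39e-09). Xap5 KO and Sox5 KO differed by 0.06 (SE 0.0950, adjusted p = 0.583), with an interval from -0.13 to 0.25. Against Nono KO, Cxcl12 differed by -3.16 in Xap5 KO (SE 0.0960, adjusted p = 3.37e-14), and Nono KO was 3.23 higher than Sox5 KO (SE 0.0971, adjusted p = 1.29e-14). The median change over all tested genes on chromosome 6, where Cxcl12 lies, was -0.19 in Nono KO, -0.25 in Xap5 KO and -0.35 in Sox5 KO. Summed fibroblast markers were likewise highest in Nono KO and lower in Xap5 KO and Sox5 KO than in WT. In Sox5 KO, however, 7 of the 12 were called higher and 4 lower, beside 30.6% and 30.3% of all tested genes. The median change of the 12 there was 0.47. The part of these markers in the Cxcl12 levels was not tested.

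The signalling receptor gene Cxcr4 was at 0 in every library. Ackr3, which binds Cxcl12 and removes it, measured 25.2 and 25.5 CPM in WT, 11.1, 12.6 and 8.01 CPM in Xap5 KO, 22.6, 25.1 and 26.4 CPM in Nono KO, and 1.30, 1.76 and 1.37 CPM in Sox5 KO. Ackr3 fell by 1.26 in Xap5 KO (SE 0.154, adjusted p = 9.07e-07) and by 4.10 in Sox5 KO (SE 0.184, adjusted p = 7.22e-14). In Nono KO the difference was -0.04 (SE 0.154, adjusted p = 0.858). Ligand and scavenger transcripts were thus both lower in Xap5 KO and Sox5 KO, and in Nono KO the ligand alone passed the test.

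Cx3cl1, the membrane-anchored chemokine, was not called in any of the 6 comparisons. It measured 23.6 and 23.9 CPM in WT, 21.8, 24.8 and 24.1 CPM in Xap5 KO, 28.1, 28.8 and 23.1 CPM in Nono KO, and 27.1, 26.8 and 25.8 CPM in Sox5 KO. The Sox5 KO libraries lay above WT, and the other groups overlapped it. Its differences from WT were -0.01 in Xap5 KO (interval from -0.22 to 0.20), 0.17 in Nono KO (from -0.04 to 0.38) and 0.16 in Sox5 KO (from -0.05 to 0.38). Without Nono KO replicate 3, the lowest library of that group, the Nono KO difference was 0.26 and passed the test (adjusted p = 0.0428). The median change of tested genes on chromosome 8, where Cx3cl1 lies, was -0.35 in Xap5 KO and 0.24 in Sox5 KO. Its receptor gene Cx3cr1 did not pass the filter and had at most 7 counts in any library.

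**Figure D2:**
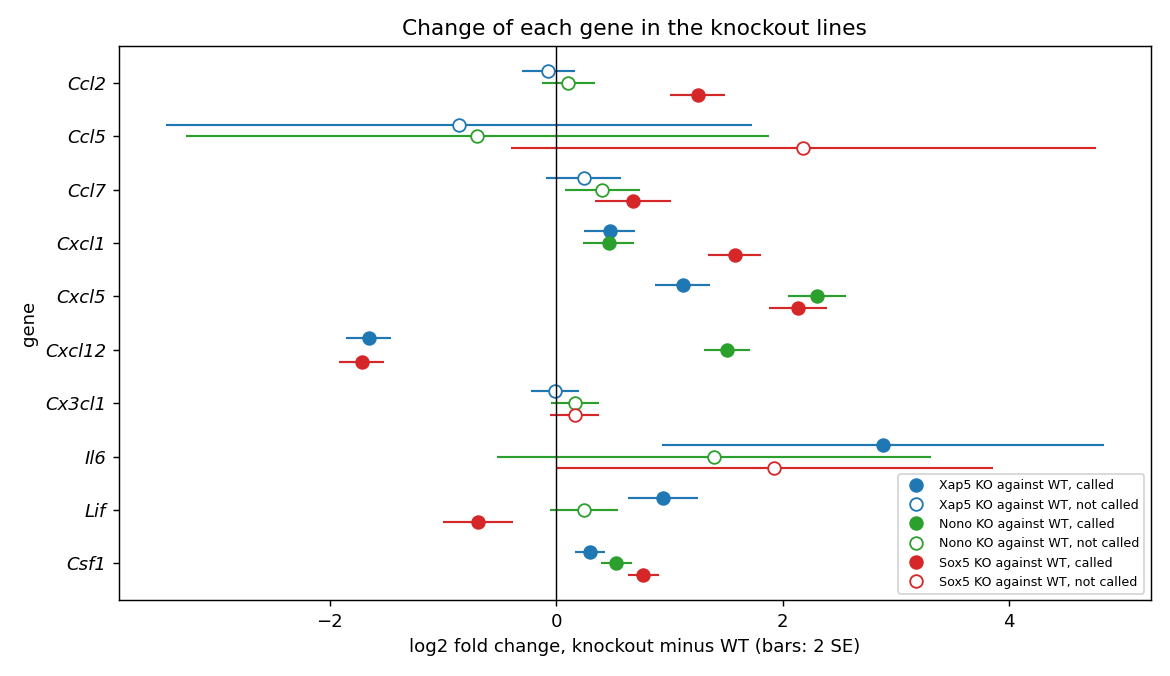
Change of each of the 10 genes against WT on the log2 scale (horizontal axis) for the 3 knockout lines; points are edgeR estimates, bars are 2 SE on either side, and filled points passed the test. Cxcl1, Cxcl5 and Csf1 lie to the right of 0 in every line, Cxcl12 lies on both sides, and the bars of Ccl5 and Il6 are the widest.

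Il6 was rare in every line and rose in Xap5 KO, a call that rested on few counts. Its counts were 16 and 0 in WT, 19, 74 and 81 in Xap5 KO, 16, 16 and 28 in Nono KO, and 18, 17 and 35 in Sox5 KO. Replicates 2 and 3 of Xap5 KO lay above all other libraries, and replicate 1, which had the highest mitochondrial share of all libraries, lay within the range of the other lines. The increase in Xap5 KO was 2.88 on the log2 scale (SE 0.976, adjusted p = 0.0203). The differences from WT were 1.39 in Nono KO (SE 0.957, adjusted p = 0.247) and 1.92 in Sox5 KO (SE 0.964, adjusted p = 0.0912). All Sox5 KO libraries lay above both WT libraries in CPM, and that difference passed with DESeq2 (1.94, adjusted p = 0.0495). Without WT replicate 1, where the lone WT library had 0 counts, the estimates were 7.29 in Nono KO and 7.81 in Sox5 KO. Xap5 KO differed from Nono KO by 1.49 and from Sox5 KO by 0.96 (SE 0.767 and 0.757), and neither difference passed the test. The WT libraries decided the size of the increase, which was 1.86 without WT replicate 2 (adjusted p = 0.147) and 8.76 without WT replicate 1 (adjusted p = 0.00148), where the lone WT library had 0 counts, so that the fitted value depends on the prior count and is no bound. The call was also lost without Xap5 KO replicate 2 (adjusted p = 0.0549) or replicate 3 (adjusted p = 0.0602). A count of 3, the limit that a count of 0 allows, stood for 0.0681 to 0.102 CPM across libraries, counting error only.

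Lif, a cytokine of the Il6 family, rose in Xap5 KO and fell in Sox5 KO. It measured 11.2 and 8.33 CPM in WT, 18.7, 18.8 and 18.8 CPM in Xap5 KO, 11.6, 10.2 and 12.9 CPM in Nono KO, and 6.37, 5.66 and 6.09 CPM in Sox5 KO. Xap5 KO lay above and Sox5 KO below every other library, and Nono KO overlapped WT. Lif was higher by 0.94 in Xap5 KO (SE 0.153, adjusted p = 3.42e-05) and fell by 0.69 in Sox5 KO (SE 0.155, adjusted p = 0.000588). In Nono KO the difference was 0.25 (SE 0.152, adjusted p = 0.196), which passed the test without WT replicate 1 (0.48, adjusted p = 0.0469). Between knockouts every difference passed the test: Xap5 KO exceeded Nono KO by 0.70 and Sox5 KO by 1.63, and Nono KO exceeded Sox5 KO by 0.94 (SE 0.134, 0.140 and 0.141). The order of the groups was therefore Xap5 KO, Nono KO, WT and Sox5 KO, and in it Nono KO and WT did not differ beyond their spread.

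The receptor subunits of these cytokines were also measured. Il6st, encoding gp130, rose in Xap5 KO from 472 CPM ± 5.21 in WT (SD, n = 2) to 692 ± 41.3, and in Nono KO to 891 ± 7.99 (SD, n = 3 each), by 0.55 and 0.92 on the log2 scale (SE 0.0646 and 0.0654, adjusted p = 5.13e-07 and 2.04e-10). It fell by 0.60 in Sox5 KO (SE 0.0633, adjusted p = 5.02e-08), to 312 ± 21.2 CPM (SD, n = 3), but the length and GC correction put that change at -0.03 (adjusted p = 0.618). Lifr, the Lif receptor, named after its values were seen, was 0.24 higher in Xap5 KO (SE 0.0648, adjusted p = 0.00414) and fell by 1.01 in Sox5 KO (SE 0.0647, adjusted p = 1.83e-11). In Nono KO it differed by -0.10 (adjusted p = 0.232), which passed the test when libraries were scaled by their totals (-0.26, adjusted p = 0.00210).

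Csf1 rose in every knockout line, and the steps between the lines were small against a tight spread. It measured 454 and 469 CPM in WT, 602, 583 and 516 CPM in Xap5 KO, 671, 701 and 627 CPM in Nono KO, and 779, 767 and 811 CPM in Sox5 KO. The 4 groups did not overlap, rising from WT through Xap5 KO and Nono KO to Sox5 KO. The increases over WT were 0.30 in Xap5 KO (SE 0.0673, adjusted p = 0.00106), 0.53 in Nono KO (SE 0.0677, adjusted p = 1.36e-06) and 0.77 in Sox5 KO (SE 0.0683, adjusted p = 3.61e-09). Between lines every difference passed the test: -0.23 for Xap5 KO against Nono KO, -0.47 for Xap5 KO against Sox5 KO and -0.24 for Nono KO against Sox5 KO (SE 0.0597, 0.0598 and 0.0597). The first of these did not pass when libraries were scaled by their totals (-0.12, adjusted p = 0.0716). Its receptor gene Csf1r had at most 78 counts in any library and was not called against WT in any line.

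Summed per kilobase of transcript, the 10 genes came to 856 CPM per kb ± 13.3 in WT (SD, n = 2), 1802.5 ± 173 in Sox5 KO, 1212 ± 104 in Nono KO and 955 ± 78.0 in Xap5 KO (SD, n = 3 each). The Nono KO and Sox5 KO sums lay above WT in every library, and 1 of the Xap5 KO sums, 865, lay within the WT range of 847 to 866. Ccl2 and Ccl7 made up most of each sum, at 47.8% and 30.3% in WT and 53.8% and 23.0% in Sox5 KO. In Nono KO the share of Ccl2 was 36.2% ± 2.76 and that of Cxcl5 was 16.3% ± 2.42 (SD, n = 3), against 4.65% ± 0.0393 for Cxcl5 in WT (SD, n = 2). In WT the levels per kilobase ran, from high to low, Ccl2 (409 CPM per kb), Ccl7 (260), Csf1 (111), Cxcl5 (39.8), Cxcl12 (14.5), Cxcl1 (12.7), Cx3cl1 (7.16), Lif (2.42), Ccl5 (0.399) and Il6 (0.0847), and no neighbours in that order overlapped in their 2 libraries. The order changed in the knockouts: Cxcl5 stood above Csf1 in Nono KO, at 197 ± 22.5 against 160 ± 8.94 CPM per kb (SD, n = 3 each). Cxcl12 stood below Cx3cl1 in Xap5 KO, at 4.62 ± 0.758 against 7.11 ± 0.471, and in Sox5 KO, at 4.41 ± 0.271 against 8.02 ± 0.198 (SD, n = 3 each). In Sox5 KO, Cxcl5 and Csf1 overlapped, at 175 ± 23.2 and 188 ± 5.51 CPM per kb (SD, n = 3 each).

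**Figure D3:**
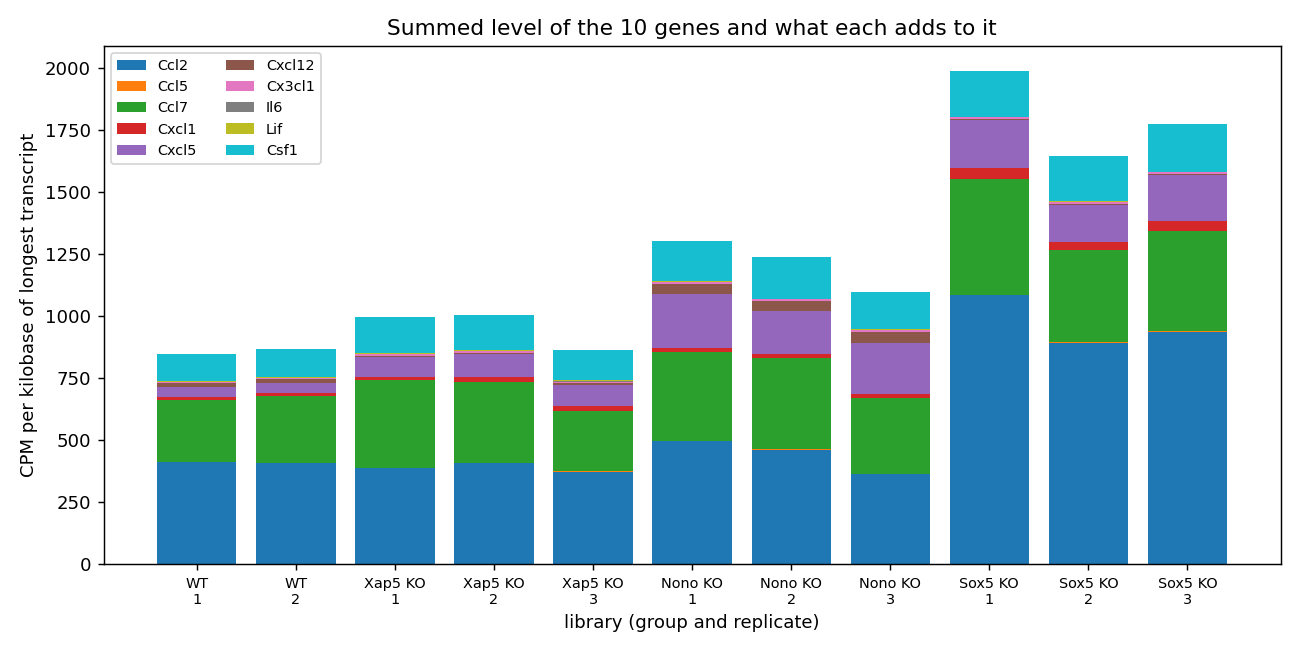
Summed level of the 10 genes in each library, in CPM per kilobase of the longest annotated transcript (vertical axis), stacked by gene. Ccl2 and Ccl7 make up most of every bar; the Sox5 KO bars are the tallest, and the Cxcl5 share is largest in Nono KO.

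Genes whose log2 CPM followed a member most closely over the 11 libraries were found among 11544 genes with a mean of at least 1 CPM. For Cxcl12 they were Pcdhb8 (Pearson's r 0.992), Trabd2b (0.992) and Sgcd (0.989). For Lif they were Foxc1 (0.982), Ifi203 (0.979) and Slx4 (0.979), for Cxcl5 Selenom (0.983), Oat (0.982) and Slc7a5 (0.981), for Cxcl1 they included Selenos (0.984) and Atp5c1 (0.982), and for Csf1 Cwc15 (0.986), Slc35e1 (0.983) and Tlcd3a (0.980). Ccl2 was followed by Psmd7, Psmc6 and Cdc34 (0.984, 0.984 and 0.983) and Ccl7 by Dynlrb1, Adipor1 and Aen (0.950, 0.936 and 0.924). Cx3cl1 was followed by S100a10, Nek8 and Nqo2 (0.915, 0.913 and 0.897). Il6 had the weakest likenesses of the 10, from 0.866 to 0.910 (Rab40c, Arih2 and Paqr7), and those of Ccl5 ran from 0.902 to 0.951 (Gin1, Ptpmt1 and Timp4). The 11 points form 4 groups and share library and depth within each, so these values describe a common order of the groups.

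Other chemokines were mostly silent: of 29 listed, 11 were at 0 in every library and 10 passed the filter. Among those 10, 2 were called higher and 1 lower than WT in Xap5 KO, 3 and 0 in Nono KO, and 6 and 1 in Sox5 KO, with median changes of 0.70, 0.26 and 2.31. Called shares were thus 30.0%, 30.0% and 70.0%, beside 45.5%, 48.6% and 60.9% of all tested genes, which split about evenly between higher and lower. These counts describe the genes that passed the filter, not the whole list. Ccl9, a CC chemokine that attracts myeloid cells, rose in every line, from 0.695 and 0.703 CPM in WT to 1.06 to 2.42 in Xap5 KO, 3.38 to 4.96 in Nono KO and 7.17 to 7.90 in Sox5 KO. Its changes were 1.37, 2.56 and 3.44 on the log2 scale (SE 0.332, 0.333 and 0.339, adjusted p = 0.00190, 1.68e-06 and 1.74e-08). Ccl20 passed the filter through Sox5 KO alone, so that a difference there follows in part from the filter. It had 0 counts in WT and in Nono KO and 8 to 14 in Sox5 KO, at least 5.12-fold higher than WT against a floor of 3 counts per library (adjusted p = 0.0177), a call lost without either WT library (adjusted p = 0.0736 and 0.0806).

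Of 26 other inflammatory cytokines 18 passed the filter. In Xap5 KO 2 were higher and 7 lower, in Nono KO 1 and 3, and in Sox5 KO 8 and 4, with median changes of -0.29, -0.09 and 0.85. That made 50%, 22.2% and 66.7% of the 18, beside the same 45.5%, 48.6% and 60.9% of all genes. Here too the counts describe the genes that passed the filter, not the whole list. Il33, an alarmin of the Il1 family, rose in Nono KO by 3.66 (SE 0.315, adjusted p = 3.89e-09), from 0.545 and 1.02 CPM in WT to between 8.55 and 10.6. It also rose in Sox5 KO, by 1.14 (SE 0.308, adjusted p = 0.00318). When 1 library was left out, that estimate ran from 0.74, without WT replicate 2, to 1.64, so its size depended on single libraries. In Xap5 KO Il33 was not called (-0.24). Il1a, named after its values were seen, had 12 and 4 counts in WT and 285 to 345 in Xap5 KO and rose there by 5.33 (SE 0.736, adjusted p = 4.73e-05). With 40 to 43 counts in Sox5 KO it rose there by 2.77 (SE 0.733, adjusted p = 0.00500). That estimate ran from 2.13, without WT replicate 2, to 3.80 when 1 library was left out, so its size too depended on single libraries. In Nono KO Il1a was not called (0.31). Csf2, which encodes the myeloid growth factor GM-CSF, had 0 counts in WT and Nono KO and passed the filter through the other lines alone. Its differences from WT in those lines thus follow in part from the filter. Against the same floor its level in Xap5 KO was at least 4.11-fold higher (adjusted p = 0.0134) and that in Sox5 KO at least 6.39-fold higher (adjusted p = 0.00455). The Xap5 KO call was lost without either WT library (adjusted p = 0.0661 and 0.0717). Clcf1, a cytokine of the gp130 family, changed by -1.25, -1.18 and -0.24 (SE 0.0903, 0.0902 and 0.0901), values for 3 lines being listed here and below with Xap5 KO first, Nono KO next and Sox5 KO last. The change in Sox5 KO was lost without WT replicate 1 (adjusted p = 0.198).

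Of 32 inputs, kinases and subunits of NF-kB signalling, all tested, 7 were higher and 9 lower in Xap5 KO, 4 and 16 in Nono KO, and 6 and 12 in Sox5 KO, with medians of -0.01, -0.20 and -0.04. Of these genes 50%, 62.5% and 56.2% were called, beside 45.5%, 48.6% and 60.9% of all tested genes. Tlr4, the lipopolysaccharide receptor, changed by -0.39, -0.28 and -0.82 (SE 0.0686, 0.0686 and 0.0688). Of 26 feedback and target genes, 12 were higher and 5 lower in Xap5 KO, 6 and 11 in Nono KO, and 8 and 11 in Sox5 KO, with medians of 0.21, -0.26 and -0.32. The called shares were 65.4%, 65.4% and 73.1%, beside the same shares of all genes. Nfkbia, whose protein holds NF-kB in the cytoplasm and which is itself an NF-kB target, changed by -0.76, -0.65 and -0.98 (SE 0.0735, 0.0735 and 0.0738). Sod2, the mitochondrial superoxide dismutase, rose by 0.90, 0.52 and 0.60 (SE 0.0710, 0.0704 and 0.0706). Saa3, an acute-phase protein from a family of similar genes between which counting could split reads, rose by 3.50, 0.69 and 3.46 (SE 0.132, 0.121 and 0.132). Lcn2, the iron-binding lipocalin, measured 4.49 CPM in both WT libraries and 47.6 to 68.1 in Xap5 KO, higher by 3.65 (SE 0.162, adjusted p = 1.27e-13). In Nono KO and Sox5 KO Lcn2 changed by -0.70 and -0.53 (adjusted p = 0.00121 and 0.00861), calls that limma-voom did not make (adjusted p = 0.110 and 0.226).

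Of 16 genes of gp130, JAK and STAT signalling, 3 were higher and 3 lower in Xap5 KO, 5 and 4 in Nono KO, and 1 and 8 in Sox5 KO, with medians of 0.08, 0.01 and -0.34. Called shares of 37.5%, 56.2% and 56.2% stood beside 45.5%, 48.6% and 60.9% of all tested genes. Socs1, a feedback inhibitor of JAK kinases, changed by -0.97, -0.64 and -1.57 (SE 0.127, 0.127 and 0.130), and the kinase gene Tyk2 by -0.55, -0.59 and -0.77 (SE 0.0887, 0.0887 and 0.0891). Of 14 regulators of cytokine mRNA decay, 2 were higher and 7 lower in Xap5 KO, 2 and 7 in Nono KO, and 2 and 10 in Sox5 KO, with medians of -0.19, -0.17 and -0.45, while 22.3%, 25.1% and 30.3% of all tested genes were called lower. Zfp36 changed by -0.52, -0.91 and -0.43 (SE 0.115 each, adjusted p = 0.000824, 1.19e-06 and 0.00285). Rc3h1, which encodes roquin, an RNA-binding protein of mRNA decay, changed by -0.33, -0.38 and -0.97 (SE 0.0635, 0.0635 and 0.0637), and Tia1, a translational repressor that binds AU-rich elements, changed by -0.65, -0.80 and -0.76 (SE 0.0969, 0.0969 and 0.0972). The 20 receptor genes of the group were sparsely expressed, and 10 passed the filter. Of these, 2 were higher and 3 lower in Xap5 KO, 2 and 3 in Nono KO, and 1 and 7 in Sox5 KO. That made 50%, 50% and 80% of the 10 called, beside 45.5%, 48.6% and 60.9% of all tested genes.

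**Figure D4:**
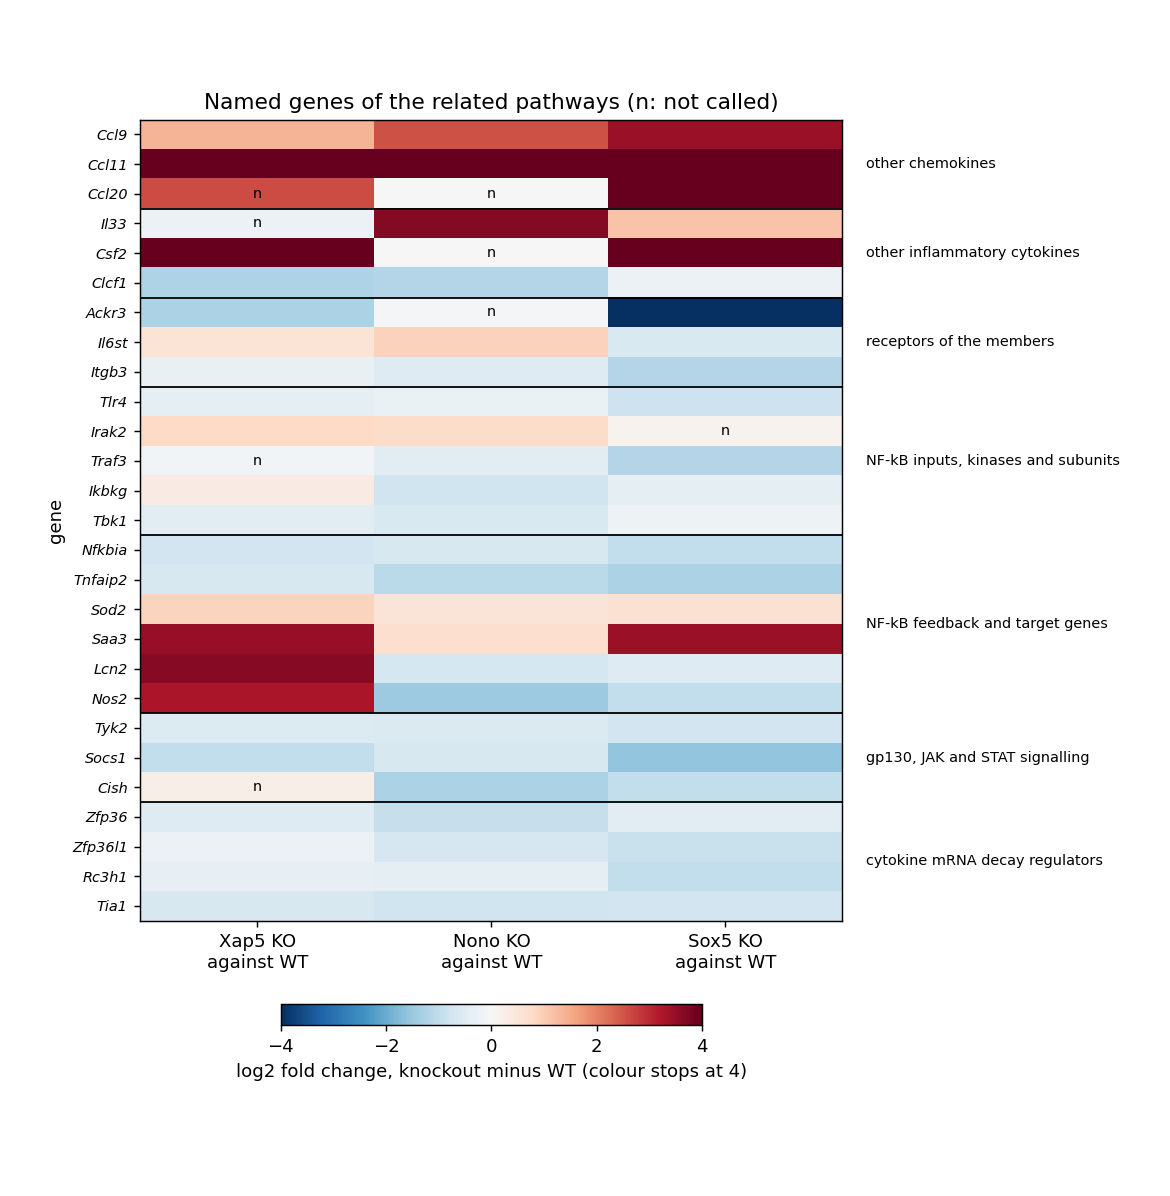
Change against WT on the log2 scale in the 3 knockout lines (columns) for named genes of each list (rows); colour gives the size, stopping at 4 in either direction, and n marks a change that did not pass the test. Zfp36, Nfkbia and Socs1 are lower in all 3 columns, Ccl9, Ccl11 and Saa3 are higher in all 3, and Lcn2 is higher in Xap5 KO and lower in the other columns.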

How the data were processed

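Gene expression was measured by RNA-seq in 11 libraries of serum-starved NIH/3T3 cells. The values were estimated counts per gene, deposited by the authors as 1 table of whole numbers, per the file headers. Per the submitters' processing notes, HISAT2 2.1.0, StringTie 1.3.3b and DESeq2 1.12.4 were used, with GRCm39 (mm39); which step each served, the annotation, filters and strand handling are not given in the sources used here. A value of 2 was found 3302 times and a value of 1 just 857 times, so a count need not stand for 1 read, and the counts were used as they were, since rounding changed nothing. Of 21684 genes, 5060 were at 0 in every library.

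The 11 libraries were fitted together in edgeR 4.0.16 (R 4.3.3) with a mean for each group, TMM scaling and the robust quasi-likelihood test. The filter on expression (minimum count 10, minimum total 15) asked for about 0.263 CPM in at least 2 libraries and kept 13332 genes. Adjustment was by Benjamini-Hochberg over all 13332, with calls at an adjusted p under 0.05. The common biological coefficient of variation was 10.6%, and tested genes had a median count of 1024. Folds against a group at 0 are lower bounds against a floor of 3 counts per library, and floors cover counting error only, since amplified reads are not independent molecules. The procedure was tested on simulated data.

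Transcript length, GC content and gene order came from GENCODE M21 (GRCm38), in which 21540 of 21684 gene IDs matched, and promoters from RefSeq; no exon of the 10 genes overlapped another gene. Alternatives were other scalings (DESeq2's size factors, library totals), other filters, DESeq2 1.42.0, limma-voom (limma 3.58.1), 2-group fits, a replicate block, a 2-fold minimum, an offset for gene length and GC content, and leaving out each library. The 10 genes and the gene lists were chosen with earlier results of these data known, so their counts are descriptions. Named list genes were those called in all 3 lines in 1 direction, at most 4 per list, and the largest called change in each line; the genes most like a member were the 3 with the highest Pearson's r. Some genes that these rules select are not reported here. The labels give no batch or date.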

Additional observations from a re-analysis of the deposited data

Results flagged for a closer look

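Cxcl12 changed in opposite directions against WT in different lines, and the lines differed in a direct test. It was lower in Xap5 KO and Sox5 KO and higher in Nono KO. Between lines, the difference was -3.16 for Xap5 KO against Nono KO (SE 0.0960, adjusted p = 3.37e-14, edgeR) and 3.23 for Nono KO against Sox5 KO (SE 0.0971, adjusted p = 1.29e-14), and all libraries of each line lay on the same side of WT.

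Lif was higher than WT in Xap5 KO and lower in Sox5 KO, and those lines differed by 1.63 (SE 0.140, adjusted p = 2.19e-09, edgeR), with all 3 libraries of each line on their side of both WT libraries.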

How the results depend on the processing

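Of 60 tests of the 10 genes, 34 were called. Under 21 alternatives, 17 of the 34 calls held throughout and 27 held under every alternative but the 2-fold minimum. Over 1248 recomputed changes, 1154 kept direction and call, 40 lost the call, 26 gained one and 28 turned sign, all 28 for differences that were not called. With a minimum of 2-fold, called genes numbered 3 for Xap5 KO against WT, 2 for Nono KO against WT, 4 for Sox5 KO against WT and 2 for Xap5 KO against Nono KO. The remaining comparisons, those of Xap5 KO and Nono KO against Sox5 KO, are not reported here under that minimum.

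Changed signs were these, on the log2 scale. Cxcl1 in Xap5 KO against Nono KO was -0.0162 with size factors and with DESeq2, -0.0083 without a filter, -0.0144 with at least 10 counts in every library, and -0.0961 to 0.0845 when leaving out 1 library. With library totals, which moved the all-gene median by -0.16 (Nono KO against WT), -0.11 (Sox5 KO against WT) and 0.11 (Xap5 KO against Nono KO), Ccl2 in Nono KO against WT was -0.0575 and Cx3cl1 in Nono KO against Sox5 KO was -0.0438. With the length and GC offset, which had values for 99.7% of tested genes, Ccl7 was -0.0609 in Xap5 KO and -0.0012 in Nono KO against WT, Cx3cl1 0.11 in Xap5 KO, Ccl2 -0.21 in Nono KO, and Cxcl12 -0.16 in Xap5 KO against Sox5 KO. Leaving out 1 library, Ccl5 ran from -6.33 to 0.0722 in Xap5 KO and from -1.28 to 0.25 in Nono KO against WT, and from -5.64 to 0.42 in Xap5 KO against Nono KO; Cx3cl1 from -0.0601 to 0.0291 in Xap5 KO against WT and from -0.0541 to 0.0987 in Nono KO against Sox5 KO; and Cxcl12 from -0.0578 to 0.18 in Xap5 KO against Sox5 KO. Among pathway genes against WT, the sign changed for Ptprc in Xap5 KO (-0.11) and Il1a in Nono KO (-0.70) with limma-voom, and with the offset for Traf3 in Xap5 KO (0.0202), Ikbkg in Sox5 KO (0.0742) and Vwf in Sox5 KO (0.0330). Without 1 library it changed for Il33 in Xap5 KO (-0.64 to 0.26), Cish in Xap5 KO (-0.0083 to 0.48), Ackr3 in Nono KO (-0.0902 to 0.0217) and Il1a in Nono KO (-1.03 to 1.36). The cause was not tested.

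The labels do not say whether replicate numbers pair the libraries. Over 15 same-numbered pairs the correlation of deviations from the group mean ran from -0.0226 to 0.0465. Over 30 differently numbered pairs it ran from -0.0465 to 0.0165. Deviations within groups of 2 or 3 libraries are tied to each other, so these values cannot decide whether libraries were paired. With the replicate block, 6, 5 and 7 of the 10 genes were called against WT in Xap5 KO, then Nono KO, then Sox5 KO; Il6 in Xap5 KO lost its call (2.57, adjusted p = 0.0611), Ccl7 gained one in Xap5 KO (0.31, adjusted p = 0.0489) and in Nono KO (0.49, adjusted p = 0.00578), Cx3cl1 in Xap5 KO was 0.0243, and Ackr3 in Nono KO was 0.0205. A fit of the 2 groups alone also lost Il6 in Xap5 KO (adjusted p = 0.0573). Ccl5, Il6, Ccl11, Ccl20, Csf2, Il1a, Ptprc and S100a8 had at most 16 counts in either WT library, which limits the precision of their changes.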
